A study of Saccharomyces cerevisiae with 6 samples.

Results

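The genes described here store, release, modify, import and regulate sterols in budding yeast, Saccharomyces cerevisiae, and were compared between a strain that makes β-carotene and the strain it came from. They are the sterol acyltransferases ARE1 and ARE2, the steryl ester hydrolases YEH1, YEH2 and TGL1, the sterol acetyltransferase ATF2 and deacetylase SAY1, the regulators UPC2 and ECM22 and the sterol importer AUS1. These 10 genes were chosen by name, all 10 were found among the 6445 genes listed, and all 10 passed the filter on low counts. The producer, with 3 libraries, has the genotype label CrtI/E/YB, the names of carotenoid genes, and the parent, with 3 libraries, is CEN.PK2-1C, a laboratory strain of haploid yeast labelled WT. Both strains grew for 18 h in YPD, a rich glucose medium, at 30 °C and 250 rpm. The labels give neither the promoters that drive the introduced genes nor whether the producer is 1 clone, and they are silent on whether each replicate was its own culture. The p-values therefore cover the spread between these libraries alone, which may be technical. Since whole cultures were sequenced, fewer cells of a kind and less RNA per cell cannot be told apart. The comparison asks whether the host's sterol storage and control genes differ in a strain that carries a pathway drawing on the same isoprenoid precursors.

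Ergosterol, the sterol of yeast membranes, shares its early precursors with carotenoids. Surplus sterol is joined to a fatty acid by an acyltransferase and kept as steryl ester in lipid droplets, from which hydrolases free it again. When sterol runs low, the transcription factors Upc2 and Ecm22 activate the synthesis genes, and without oxygen, when synthesis stops, ABC transporters take sterol up from the medium.

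Libraries held 48383161 to 58296520 estimated counts. GAL80, the repressor of the galactose genes, had 0, 0 and 2 counts in the producer libraries, against 6267, 4941 and 4891 in the parental ones, a difference the genotype labels do not mention. Effects of the lost GAL80 transcript and of the introduced genes cannot be told apart in this comparison. Fold changes followed the GC content of the gene, with a Spearman correlation of 0.641 over 6063 genes, which share the same 6 libraries and are not independent. Relative to the mean of the libraries, transcript levels followed GC content with correlations of 0.603, 0.471 and 0.328 for producer libraries, against 0.220, -0.647 and -0.470 for parental ones. A fit that takes this trend out of each library, called GC-corrected below, is therefore given beside most results. Levels are in CPM, counts scaled to a common library size with TMM factors, and levels of different genes are compared per kilobase of gene (CPM per kb). Of the genes specific to mating type a, the summed level was 583 to 663 CPM in the producer and 598 to 626 CPM in the parent, and of those specific to mating type alpha, 142 to 148 CPM in producer and 119 to 132 CPM in parental libraries. SAG1 made up most of the alpha sum, with means of 115 CPM in the producer and 97.3 CPM in the parent, while MF(ALPHA)1 had 1.23 and 1.89 CPM. Of the a-specific genes STE2 was the most abundant, at 311 and 300 CPM. In both sets 0 genes passed the test. The smallest adjusted p values in edgeR were 0.105 for MFA1 and 0.116 for MFA2 in the a set. In the alpha set they were 0.0901 for SAG1 and 0.304 for MF(ALPHA)1.

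None of the 10 sterol genes passed the test in edgeR, at an adjusted p under 0.05 over all 6125 genes tested, where 1.14% of genes passed. At an unadjusted p under 0.05 there were 3 of 10, ARE1, ECM22 and YEH1, all higher in the producer, against 27.3% of all genes in either direction and 13.8% upward. The libraries of the strains lay apart, with no overlap, in 5 of 10, against 33.7% of all genes. ARE1, ECM22, YEH1 and YEH2 were higher in all 3 producer libraries than in any parental library, and TGL1 was lower. The median log2 fold change was 0.07 over the 10 genes and -0.01 over all genes tested, and GC-corrected 0.12 and 0.01. The 95% intervals of 9 of the 10 lay inside a 1.5-fold change in either direction, as did those of 81.8% of all genes, and ARE1 was the exception. ARE1 and ECM22 did pass in DESeq2, where 13.7% of all genes passed, and in edgeR without parent replicate 1, where 17.5% passed.

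**Figure D1:**
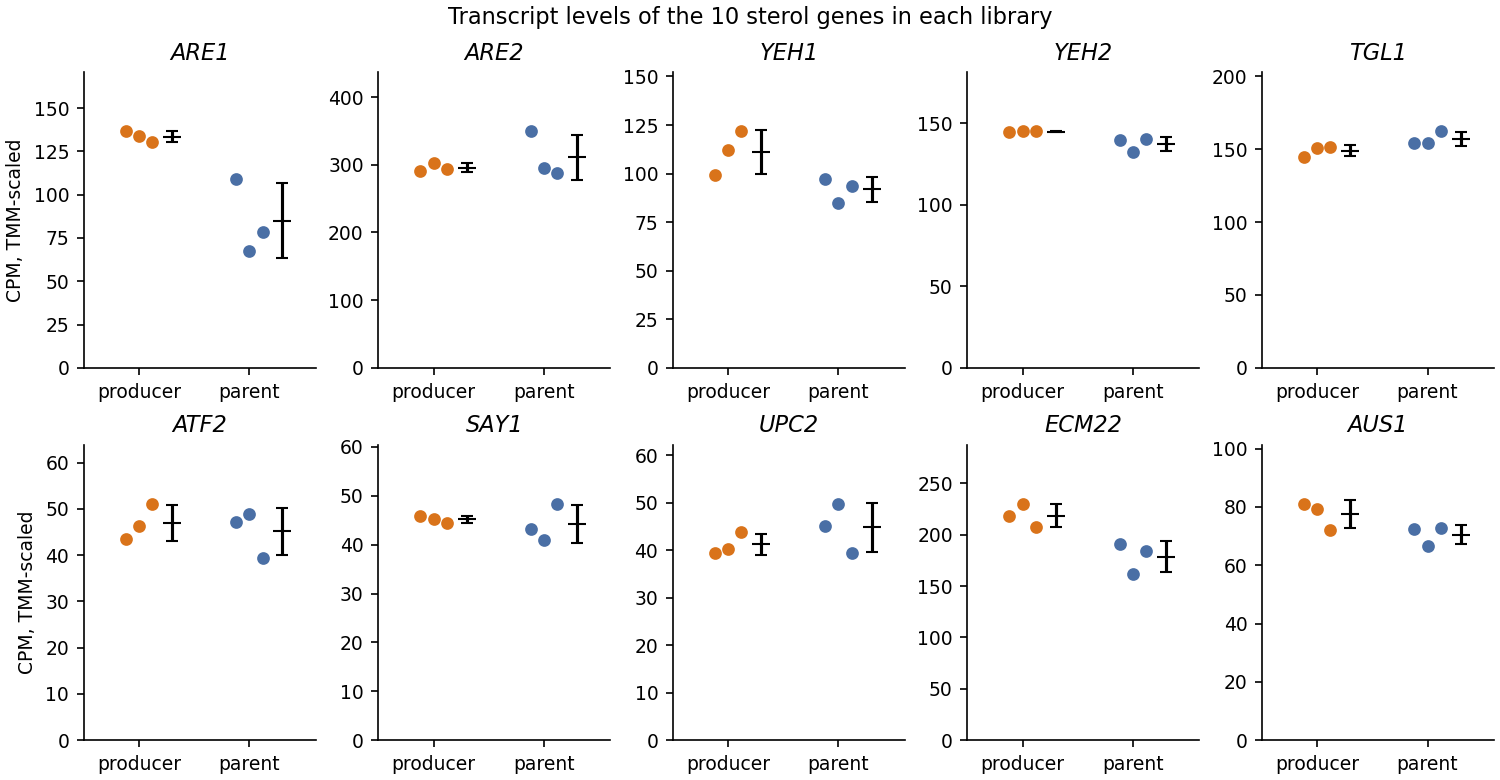
Level of each sterol gene in CPM, TMM-scaled, from 0, in each library (points, in order of replicate number), with the mean and SD of the 3 libraries of a strain (bar). ARE1 lies at 130 CPM or more in the producer libraries and at 109 CPM or less in the parental ones, while ARE2, ATF2, SAY1, UPC2 and AUS1 overlap.

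The acyltransferases are paralogues that both make steryl esters. ARE2 is known as the main form in aerobic cells, and ARE1 as the form that rises when heme or oxygen is short. In the reference genome their proteins are 610 and 642 residues long and identical at 49.5% of 608 aligned positions. The longest run of bases the coding sequences share is 17.

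ARE1 (YCR048W, chromosome III, 211929 to 213761, plus strand, a single exon) had 137, 134 and 130 CPM in the producer, against 109, 67.4 and 78.6 CPM in the parent. The producer libraries lay close together, and parent replicate 1 was the parental library nearest to them. The means were 133 ± 3.11 CPM in the producer and 85.0 ± 21.5 CPM in the parent (SD, n = 3 each). The log2 fold change was 0.65 ± 0.15 (SE, 95% interval 0.31 to 1.00), 1.57-fold, with an edgeR adjusted p of 0.0698. With a library left out it ranged from 0.51 without parent replicate 2 to 0.87 without parent replicate 1, where the edgeR adjusted p was 0.00350. With the library total as a covariate it was 0.31, with an edgeR adjusted p of 0.893.

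ARE2 (YNR019W, chromosome XIV, 665339 to 667267, plus strand) had 290, 303 and 294 CPM in the producer, against 349, 294 and 288 CPM in the parent. Parent replicate 1 stood above the other 5 libraries, and the strains overlapped. The log2 fold change was -0.07 ± 0.09 (SE, 95% interval -0.27 to 0.12) with an edgeR adjusted p of 0.608.

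ARE2 was the more abundant of the pair per kilobase in every library, at 153 ± 3.43 CPM per kb in the producer and 161 ± 17.4 in the parent, while ARE1 stood at 72.8 ± 1.70 CPM per kb in the producer and 46.4 ± 11.7 in the parent (SD, n = 3 each). ARE1 made up 33.1%, 31.7% and 31.8% of the summed level of the pair in the producer, against 24.7%, 19.4% and 22.3% in the parent. The share of ARE1 was thus higher in every producer library. The log2 ratio of ARE1 to ARE2 within a library was -1.15 ± 0.05 in the producer and -1.89 ± 0.22 in the parent (SD, n = 3 each), a difference of 0.75 ± 0.13 (SE). An exact permutation test, two-sided, gave p = 0.1, the smallest that 3 against 3 libraries allow, and 0.175 adjusted over the 7 ratios computed.

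ARE1 is rich in GC. Its content of 49.9% exceeds that of 98.2% of the genes tested, while ARE2 is at 40.8%. GC-corrected, ARE1 had 116, 121 and 120 CPM in the producer, against 107, 85.4 and 89.7 CPM in the parent, still with no overlap. Its corrected log2 fold change was 0.34 ± 0.08 (SE), with an edgeR adjusted p of 0.0932. The corrected log2 ratio of ARE1 to ARE2 was -1.30, -1.30 and -1.29 in the producer, against -1.69, -1.84 and -1.69 in the parent. The strains also lay apart in the corrected ratio, by 0.44 ± 0.05 (SE, exact permutation p = 0.1).

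**Figure D2:**
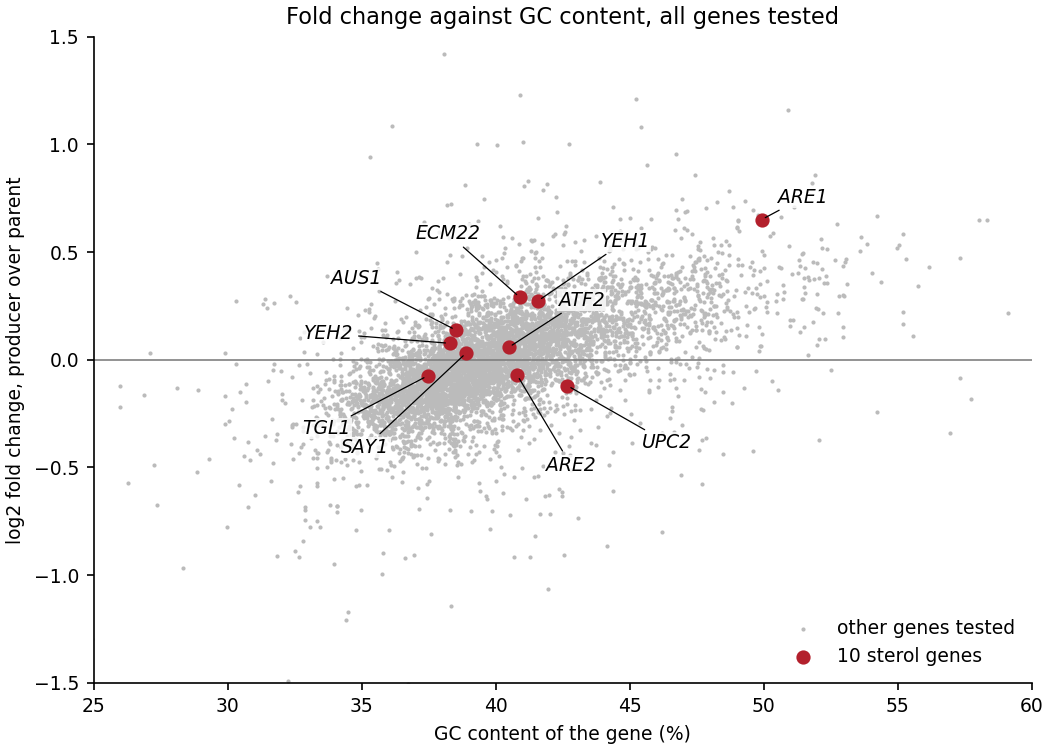
Log2 fold change, producer over parent, against the GC content of the gene in percent, for the 10 sterol genes (red, named) and the other genes tested (grey); 24 genes lie outside the axes. ARE1, at 49.9% GC, lies far to the right of the other members, which range from 37.5% to 42.7%.

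The neighbours of ARE1 on chromosome III were examined after its value had been seen, and their median GC content was 45.6%, against 39.7% over all genes. Of the 5 tested genes on each side, 9 of 10 had a positive log2 fold change, with a median of 0.32, against -0.01 over all genes tested. Of these 10, 1 passed the test, against 1.14% of all genes, and 1 of 10 also passed around ARE2 and around AUS1. Beside ARE1 the gene that passed was BUD23, a ribosomal RNA methyltransferase gene, at 0.47 ± 0.09 (SE, edgeR adjusted p 0.0446). Next on the other side lies YCR050C on the opposite strand, at 0.41 ± 0.20, and then YCR051W at 0.47 ± 0.10. GC content in this run was highest at YCR051W, 53.1%, BUD23, 52.7%, and IMG1, 52.4%. GC-corrected, BUD23 was at 0.09, IMG1 at -0.01 and YCR051W at 0.08, against 0.34 for ARE1. Other neighbours had larger corrected values, 0.30 for YCR043C, 0.21 for YCR050C and 0.19 for RRT12. Uncorrected, these genes were at 0.16, 0.41 and 0.46, so that YCR043C rose with the correction while YCR050C and RRT12 fell. YCR050C, a short reading frame, overlaps the last 298 bp of ARE1, 16.3% of the gene, and whether counting used strand is not stated, so that reads of the overlap may have been given to either gene. It had 121, 114 and 105 counts in the producer, against 94, 81 and 63 in the parent, while ARE1 had 7395 to 7620 counts in the producer and 3465 to 6175 in the parent.

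**Figure D3:**
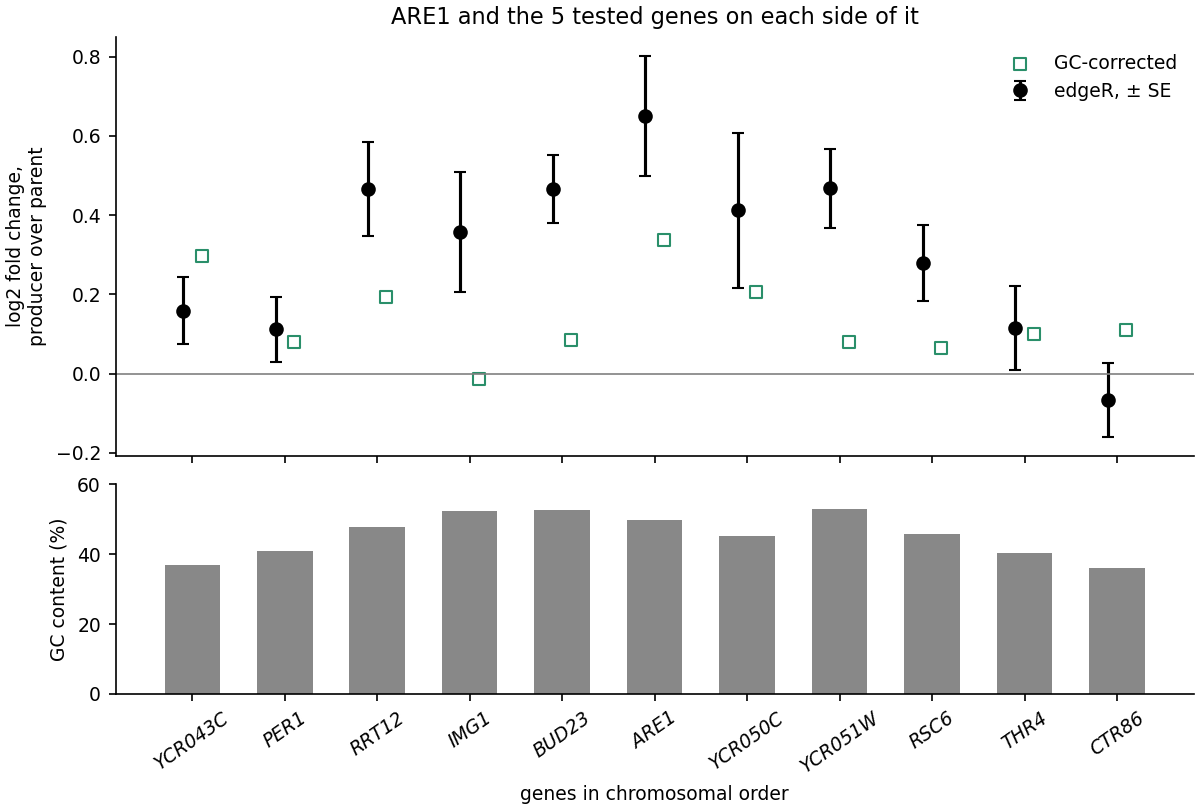
Upper panel: log2 fold change, producer over parent, of ARE1 and the 5 tested genes on each side in chromosomal order (filled, edgeR ± SE; open, GC-corrected). Lower panel: GC content of each gene in percent. Uncorrected values and GC content are both higher near the middle of the run, but ARE1, the highest value at 0.65, is not the gene richest in GC. After correction ARE1, at 0.34, and YCR043C, at 0.30, are close.

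The hydrolases split steryl esters. Yeh1 and Tgl1 sit on lipid droplets and Yeh2 in the plasma membrane, and Yeh1 is known as the main activity when heme is short. Yeh1 and Yeh2 are identical at 55.4% of 504 aligned positions, and Tgl1 at 25.4% and 26.6% with them. The coding sequences of YEH1 and YEH2 share at most 20 bases in a row.

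YEH1 (YLL012W, chromosome XII, 125534 to 127255, plus strand) had 99.3, 112 and 122 CPM in the producer, against 97.2, 84.7 and 93.7 CPM in the parent. The strains lay apart by a narrow margin, since producer replicate 1 stood just above parent replicate 1. The log2 fold change was 0.27 ± 0.09 (SE, 95% interval 0.07 to 0.48) with an edgeR adjusted p of 0.108, and GC-corrected it was 0.21 ± 0.08.

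YEH2 (YLR020C, chromosome XII, 181789 to 183405, minus strand) had 144, 145 and 145 CPM in the producer, against 140, 132 and 140 CPM in the parent. Its coefficient of variation over all 6 libraries, 3.54%, was the lowest of the 10 genes. Its log2 fold change was 0.08 ± 0.06 (SE, edgeR adjusted p 0.407). GC-corrected it was 0.15.

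TGL1 (YKL140W, chromosome XI, 180779 to 182425, plus strand) had 144, 151 and 152 CPM in the producer, against 154, 154 and 162 CPM in the parent. All 3 producer libraries were lower, by little. For TGL1 the log2 fold change was -0.07 ± 0.06 (SE, edgeR adjusted p 0.429), and GC-corrected it was 0.04, on the other side of 0. TGL1 has the lowest GC content of the 10 genes, 37.5%.

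Per kilobase, TGL1 and YEH2 were close, at 90.4 ± 2.41 and 89.5 ± 0.175 CPM per kb in the producer, against 95.2 ± 2.82 and 84.9 ± 2.78 in the parent. YEH1 was lower, at 64.5 ± 6.53 CPM per kb in the producer and 53.3 ± 3.75 in the parent (SD, n = 3 each). YEH1 made up 26.3% ± 1.72 of the summed hydrolase level in the producer and 22.8% ± 1.01 in the parent, and TGL1 37.0% ± 0.463 in the producer and 40.8% ± 1.11 in the parent (SD, n = 3 each). The log2 ratio of YEH1 to TGL1 was -0.43 ± 0.11 in the producer and -0.77 ± 0.10 in the parent, and that of YEH2 to TGL1 was -0.04 ± 0.04 in the producer and -0.19 ± 0.04 in the parent (SD, n = 3 each). The strains lay apart in both, with differences of 0.35 ± 0.09 and 0.15 ± 0.03 (SE), and an exact permutation p of 0.1 for each. GC-corrected, the YEH1 to TGL1 difference was 0.15 ± 0.08 (SE) with overlapping strains, and the YEH2 to TGL1 difference was 0.11 ± 0.02 (SE) with the strains apart. YEH1 to YEH2 differed by 0.19 ± 0.09 (SE, exact permutation p = 0.2), or 0.05 ± 0.10 after correction, and the strains overlapped in both.

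Esters are made by the acyltransferases and split by the hydrolases, and the summed levels of these sets were close. The acyltransferase pair summed to 225, 230 and 224 CPM per kb in the producer, against 240, 189 and 192 CPM per kb in the parent. The hydrolases summed to 235, 246 and 252 CPM per kb in the producer, against 236, 225 and 240 CPM per kb in the parent. The strains overlapped in both sums. The log2 ratio of the first set to the second, from CPM, was 0.09 ± 0.06 in the producer and 0.03 ± 0.18 in the parent (SD, n = 3 each, exact permutation p = 0.6), and its difference, 0.06 ± 0.11 (SE), was -0.11 ± 0.07 after the GC correction.

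**Figure D4:**
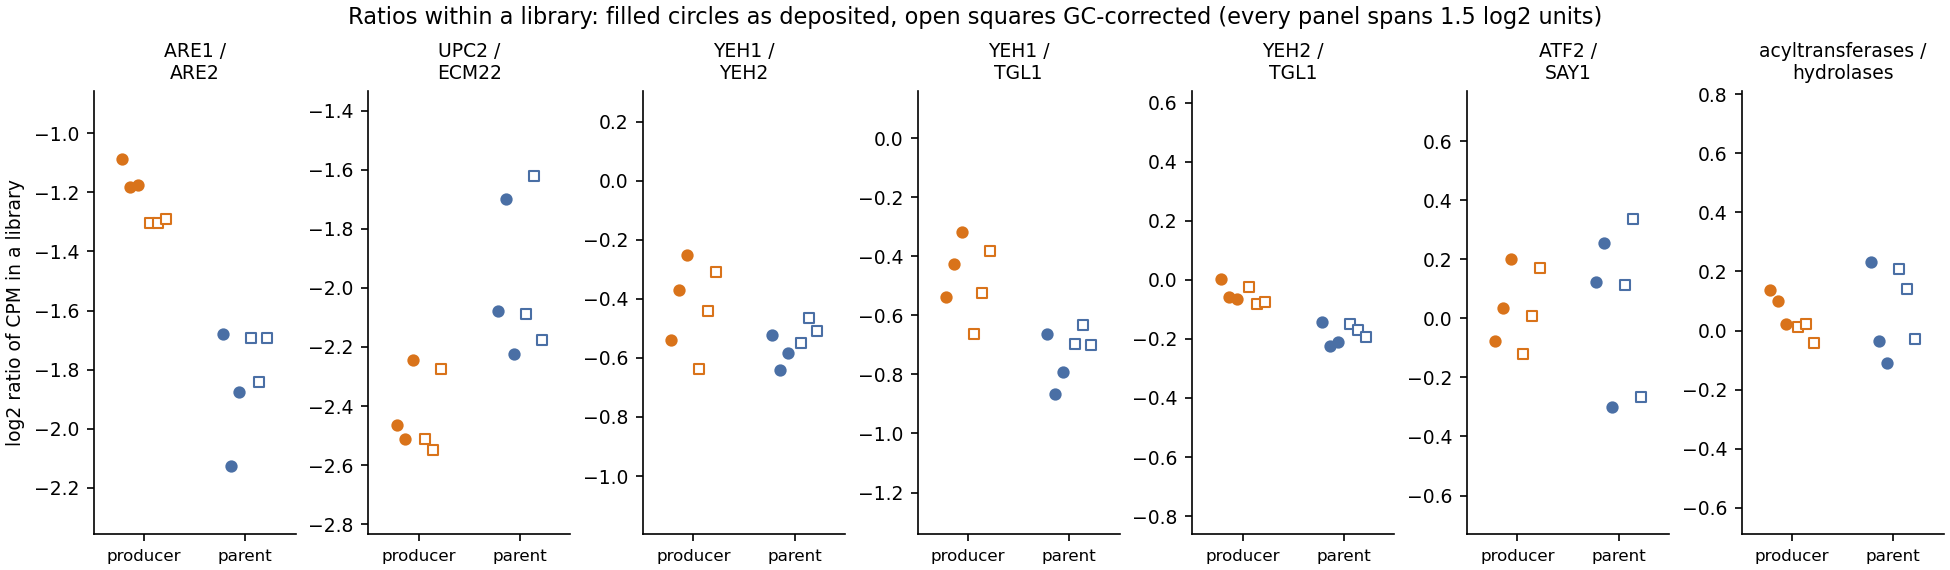
Log2 ratio of CPM within each library for the 7 ratios, producer left and parent right, from the deposited counts (filled circles) and GC-corrected (open squares); every panel spans 1.5 log2 units. The strains lie apart in ARE1 to ARE2, UPC2 to ECM22 and YEH2 to TGL1 with and without the correction. For each of these the exact permutation p is 0.1, the smallest these libraries allow. In UPC2 to ECM22 the nearest uncorrected values are -2.24 in the producer and -2.22 in the parent. The share of other gene pairs that lie apart was not computed.

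Sterols can also be acetylated and exported. Atf2, an alcohol acetyltransferase of the endoplasmic reticulum, adds the acetyl group and Say1, a membrane deacetylase, removes it. ATF2 (YGR177C, chromosome VII, 848829 to 850436, minus strand) had 43.5, 46.2 and 51.1 CPM in the producer, against 47.2, 48.8 and 39.3 CPM in the parent. SAY1 (YGR263C, chromosome VII, 1017967 to 1019241, minus strand) had 45.9, 45.2 and 44.5 CPM in the producer, against 43.3, 40.9 and 48.4 CPM in the parent. The strains overlapped in both genes, and parent replicate 3 was the lowest library for ATF2 and the highest for SAY1. The log2 fold changes were 0.06 ± 0.10 and 0.03 ± 0.09 (SE), with edgeR adjusted p values of 0.744 and 0.832 and 95% intervals of -0.18 to 0.29 and -0.16 to 0.22. The log2 ratio of ATF2 to SAY1 was 0.05 ± 0.14 in the producer and 0.03 ± 0.29 in the parent (SD, n = 3 each, exact permutation p = 0.9).

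Upc2 and Ecm22 are paralogous zinc cluster proteins that bind the sterol regulatory elements of the ergosterol genes. Upc2 is known as the factor induced by sterol depletion and lack of oxygen, and Ecm22 as the more abundant one when sterol is plentiful. The proteins are identical at 56.1% of 759 aligned positions. The cysteine pattern of the zinc cluster was found by script at residues 51 to 78 of Upc2 and 44 to 71 of Ecm22, and 25 of its 28 residues are the same. The coding bases are shown to let the DNA-binding parts be compared, with the cysteine codons in capitals, from the RefSeq assembly R64 at chrIV:889901-889984, plus strand, and chrXII:602251-602334, minus strand.
UPC2: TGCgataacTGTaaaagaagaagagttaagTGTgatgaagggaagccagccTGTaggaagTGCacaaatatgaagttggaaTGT
ECM22: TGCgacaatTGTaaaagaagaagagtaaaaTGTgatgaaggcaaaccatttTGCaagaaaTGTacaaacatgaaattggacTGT
Of these 84 bases 68 are the same, and the longest run the coding sequences share is 29 bases, near their ends.

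ECM22 (YLR228C, chromosome XII, 600019 to 602463, minus strand) had 218, 230 and 207 CPM in the producer, against 191, 162 and 184 CPM in the parent. All 3 producer libraries lay above the parental ones. ECM22 had a log2 fold change of 0.29 ± 0.08 (SE, 95% interval 0.11 to 0.47) with an edgeR adjusted p of 0.0815. GC-corrected it was 0.25 ± 0.07, so that this value, unlike that of ARE1, moved little with the correction.

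UPC2 (YDR213W, chromosome IV, 889751 to 892492, plus strand) had 39.5, 40.4 and 43.8 CPM in the producer, against 45.2, 49.8 and 39.4 CPM in the parent. Parent replicate 3 was as low as the lowest producer library, and the strains overlapped. The log2 fold change was -0.12 ± 0.10 (SE, 95% interval -0.35 to 0.11) with an edgeR adjusted p of 0.449, and GC-corrected it was -0.24 ± 0.11.

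Per kilobase ECM22 stood at 89.4 ± 4.69 CPM per kb in the producer and 73.1 ± 6.16 in the parent, and UPC2 at 15.0 ± 0.834 in the producer and 16.3 ± 1.90 in the parent (SD, n = 3 each). UPC2 made up 13.9%, 13.5% and 15.9% of the summed level of the pair in the producer, against 17.5%, 21.5% and 16.0% in the parent. The share of UPC2 was lower in every producer library, although producer replicate 3 and parent replicate 3 almost met. The log2 ratio of UPC2 to ECM22 was -2.41 ± 0.14 in the producer and -2.00 ± 0.27 in the parent (SD, n = 3 each). The difference was -0.41 ± 0.18 (SE, exact permutation p = 0.1, 0.175 adjusted over the 7 ratios), or -0.48 ± 0.19 GC-corrected. Without parent replicate 2 it was -0.26.

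AUS1 (YOR011W, chromosome XV, 349679 to 353863, plus strand) encodes an ABC transporter that takes up sterol when oxygen is absent. It had 81.2, 79.4 and 72.2 CPM in the producer, against 72.3, 66.7 and 72.6 CPM in the parent. Producer replicate 3 lay among the parental libraries. AUS1 had a log2 fold change of 0.14 ± 0.08 (SE, 95% interval -0.03 to 0.31) with an edgeR adjusted p of 0.263, and GC-corrected it was 0.20. PDR11, its partner in sterol uptake, had 90.5, 79.2 and 77.3 CPM in the producer, against 74.1, 72.0 and 74.3 CPM in the parent, a log2 fold change of 0.16 ± 0.08 (SE, edgeR adjusted p 0.208).

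**Figure D5:**
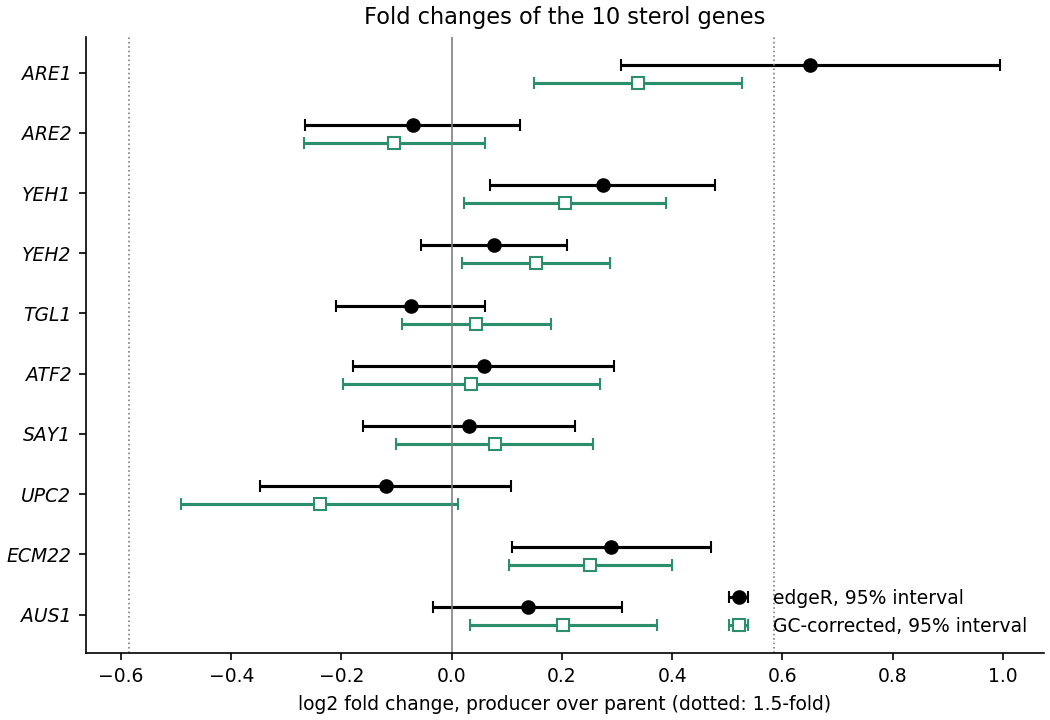
Log2 fold change, producer over parent, of the 10 genes, with 95% intervals, from edgeR (filled) and after the GC correction (open); dotted lines mark a 1.5-fold change. ARE1 stands at 0.65 without the correction and 0.34 with it, TGL1 at -0.07 and 0.04, and ECM22 at 0.29 and 0.25.

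In order of level per kilobase, ARE2 came first in both strains and stood at the percentile 77.5 of all genes tested. TGL1, YEH2 and ECM22 followed. In the producer TGL1 overlapped with YEH2 and YEH2 with ECM22, while ECM22 stood apart from the next gene, ARE1. In the parent each of them stood apart from the next. ARE1 came before YEH1 in the producer, with no overlap, and after it in the parent, where the libraries of these genes overlapped. GC-corrected and not scaled to gene length, ARE1 had 116, 121 and 120 CPM in the producer. YEH1 had 96.2, 109 and 120 CPM there, so the libraries of these genes overlapped after correction. SAY1 and ATF2 came next in both strains, in this order, and in the parent SAY1 overlapped with ARE1. AUS1 and UPC2 were last, at percentiles 9.68 and 8.68, and stood apart in the producer but overlapped in the parent. GC-corrected, 5 of the 10 genes, ARE1, ECM22, YEH1, YEH2 and AUS1, had an unadjusted edgeR p under 0.05, all higher in the producer, against 9.98% of all genes in that direction, and 0 passed after adjustment, against 1.2% of all genes.

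Binding motifs were searched on both strands in the 500 bp before the start codon. The core of the sterol regulatory element, TCGTATA, was found upstream of 6.96% of 5922 genes and of 1 of the 10, YEH1. The related element of anaerobic genes, TCGTTTAG or TCGTTCAG, which Upc2 also binds, was found upstream of 3.09% of the genes and of 3 of the 10, ARE1, ATF2 and UPC2. The matches are shown because their letters are those of motifs the regulators are known to bind. The motif is in capitals and the gene's own strand is read 5′ to 3′, from RefSeq R64. ARE1 lies at chrIII:211764-211793, YEH1 at chrXII:125308-125336, ATF2 at chrVII:850619-850648 and UPC2 at chrIV:889380-889409.
ARE1: cgtggttggacTCGTTTAGcgaacaatagc
YEH1: aaagcttattaTATACGAgaaaagaaacg
ATF2: ttttcatacacCTAAACGAtcgtaaacatt
UPC2: tatttttttctCTAAACGAgcgcaccttag
In YEH1, ATF2 and UPC2 the motif stands on the opposite strand. ARE2, YEH2, TGL1, SAY1, ECM22 and AUS1 hold neither motif in this window. A match describes letters and is not a site that was tested. ARE1 and YEH1, both higher in every producer library, carry different motifs, and ATF2 and UPC2, whose strains overlapped, carry the motif of ARE1. Some targets of the regulators, described below, were searched as well. There ERG2 holds TCGTATA, PDR11 holds TCGTTTAG, ERG3 holds both and TIR1 holds neither. Whether these motifs bear on the levels was not tested.

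Among 12 genes known as targets of Upc2 and Ecm22, edgeR called 1 higher and 0 lower in the producer, against 1.14% of all genes in either direction. The other 11 missed the threshold, and the median log2 fold change of the 12 was 0.16, or 0.10 GC-corrected. TIR1, a cell wall mannoprotein of cells without oxygen, rose to 19.2, 17.6 and 18.9 CPM in the producer, against 13.3, 10.8 and 10.4 CPM in the parent, a log2 fold change of 0.69 ± 0.12 (SE, edgeR adjusted p 0.0415). The call is lost on GC correction, at 0.43 ± 0.10 (SE, edgeR adjusted p 0.0802), and also without producer replicate 1, 2 or 3 and without parent replicate 3. ERG3 and ERG2, the desaturase and isomerase of late ergosterol synthesis, were named after their values were seen, as the next in order of p. They were at 0.37 ± 0.10 and 0.38 ± 0.11 (SE), with edgeR adjusted p values of 0.0743 and 0.0851, and GC-corrected at 0.24 and 0.22. Producer and parent libraries lay apart in 7 of the 12 in uncorrected CPM, all higher in the producer, against 16.6% of all genes in that direction. These were TIR1, ERG3, ERG2, NCP1, PDR11, ERG1 and ERG7. The margin was narrow in ERG1, with the nearest libraries at 614 and 611 CPM, and in ERG7, at 247 and 246 CPM. GC-corrected, the log2 fold changes were 0.04 for ERG1, -0.004 for ERG7, 0.10 for NCP1 and 0.20 for PDR11. The count was not repeated on corrected CPM. PDR11 belongs to this list as well as to the next.

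Sterol carriers and exporters gave 0 of 20 tested members past the threshold, with a median of -0.08, or -0.02 GC-corrected. PRY2 and PRY3, which encode sterol-binding proteins, were at 0.42 ± 0.13 and 0.50 ± 0.16 (SE), with edgeR adjusted p values of 0.0929 and 0.108, and GC-corrected at 0.14 and 0.21. PDR18 had too few counts to be tested. Of 9 other regulators of sterol genes, 0 passed, with a median of 0.10, or 0.02 GC-corrected. The smallest p values belonged to TUP1 and CYC8, the corepressor subunits, at 0.23 ± 0.09 and 0.31 ± 0.12, with edgeR adjusted p values of 0.136 for both. GC-corrected, TUP1 was at 0.02 and CYC8 at 0.15, with edgeR adjusted p values of 0.898 and 0.428. Of 5 enzymes of triacylglycerol, the other neutral lipid of the droplet, 0 passed, with a median of -0.02, or -0.0011 GC-corrected. TGL3, the main triacylglycerol lipase, was at -0.29 ± 0.08 and LRO1, an acyltransferase, at 0.19 ± 0.08, with edgeR adjusted p values of 0.0917 and 0.169. GC-corrected, TGL3 was at -0.16 and LRO1 at 0.10, with edgeR adjusted p values of 0.194 and 0.415.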

How the data were processed

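Transcripts were measured in 3 producer and 3 parental pellets from stranded mRNA libraries. The authors deposited whole-number estimated counts for each gene. The file headers name duplicate removal and StringTie. The submitters' processing notes also list HISAT2, FastQC, Picard, SAMtools, DESeq2 and build sacCer3, without versions, and the strand setting of the counting is not stated. Removing duplicates can compress high counts, which was not tested.

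Tables were joined by gene name, and 6210 of 6445 names matched the RefSeq annotation of assembly R64, from which sacCer3 is drawn. The reference is strain S288C, so sequence shown is not that of CEN.PK2-1C. As all values were whole, none was rounded. All library pairs differed by more than sampling noise.

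Strains were compared in R 4.3.3 with edgeR 4.0.16, by its quasi-likelihood test (filterByExpr, TMM, robust, strain as the only term) with Benjamini-Hochberg adjustment over 6125 genes. The scripts were tested on simulated counts. SE is the log2 fold change over the square root of F. Ratios within a library were tested with exact permutations in scipy 1.17.1. Proteins were translated and aligned with Biopython 1.88. Alternatives were other scalings and filters, DESeq2 1.42.0, limma-voom (limma 3.58.1), the replicate number as a block, library total as covariate, each library left out, and the GC correction, an offset from a loess trend (span 0.5, genes of at least 5 CPM). Members, lists and alternatives were chosen with earlier results of these data known. Named genes are the 10 members, GAL80 and, of each other list, those that passed or else the pair with the smallest adjusted p. Neighbours of ARE1, PDR11, ERG1, ERG2, ERG3, ERG7, NCP1 and STE2 were added after their values were seen.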

Additional observations from a re-analysis of the deposited data

How the results depend on the processing

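Of the 10 sterol genes, 0 passed under 14 of 17 alternatives. DESeq2 called 2, and 842 of all genes, 13.7%, against 70, 1.14%, in edgeR. It called 4 of 12 Upc2 and Ecm22 targets, 3 of 20 carriers and 1 of 9 other regulators. It also called 1 of 5 triacylglycerol enzymes, 2 of 6 a-specific and 1 of 4 alpha-specific genes. Leaving out each library gave 15 to 1077 genes, 0 to 2 of the 10, 0 to 4 targets, 0 to 4 carriers and 0 to 1 of the other regulators, triacylglycerol enzymes and alpha-specific genes, with the upper count of genes without parent replicate 1. With library total as covariate 10 genes passed. The target call, 1, was 0 with library totals only, with the GC correction, with that covariate, with the replicate block and GC correction together, and in 4 of the 6 fits that leave out a library, all but those without parent replicate 1 or 2.

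Deviations of same-numbered libraries from the means of their strains correlated at 0.238, -0.231 and -0.459. Such deviations, from means of 3 libraries and following GC content, cannot decide whether the numbers pair the libraries. With the replicate block 104 genes, 1.7%, passed, and of the 10 the ARE1 gene did, at 0.68 (edgeR adjusted p 0.0366), and with the replicate block and GC correction 25 genes. For the ratios the block allows no exact permutation p under 0.25.

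ARE1 ranged from 0.31 to 0.87 over the 17 alternatives and ECM22 from 0.19 to 0.34, both always higher in the producer. Small values changed sign. TGL1 was 0.044 with the GC correction and 0.046 with the replicate block added. ATF2 was -0.0082 with library total as covariate and SAY1 -0.016 with library totals only. Leaving out each library gave -0.12 to 0.022 for ARE2, -0.028 to 0.12 for ATF2 and -0.021 to 0.11 for SAY1. The ATF2 to SAY1 difference was -0.041 GC-corrected and -0.14 to 0.14 with a library left out, and that of acyltransferases to hydrolases -0.11 and -0.011 to 0.16. Unless named, the cause was not tested. With 3 libraries a strain, the exact tests could not pass 0.05.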
